A study of Gallus gallus with 60 samples.

Results

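The small RNAs of the brain were set against those of 4 other organs of the Tibetan chicken at 300 days of age (D300). The brain was represented by 3 samples of the 60 in the series, taken by their tissue label, and the reference was the 12 samples of liver, ovary, spleen and kidney, with 3 samples each. All 15 samples carried the same strain and age in their labels, and no treatment or genetic change was named for any of them. The labels named neither the region of brain that was sampled nor whether the samples of 1 tissue came from separate birds, so p-values measure the spread between these samples. The question was which microRNAs (miRNAs) were abundant or scarce in brain relative to the other organs.

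miRNAs are short RNAs cut from hairpin precursors, and they lower the output of the mRNAs to which they pair. Each hairpin has a 5p arm and a 3p arm, either of which may give the mature miRNA, and several hairpins can be cut from 1 transcript. In vertebrate brain, neurons are known for miR-9, miR-124, miR-128 and miR-137, and the glial cells that make myelin are known for miR-219. miRNAs encoded between the Hox genes, which pattern the trunk and hindbrain, and those of blood cells and connective tissue are known from other organs. In tissue samples such as these, a smaller number of cells of a type and a smaller amount of RNA in each cell cannot be told apart.

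The level of each miRNA was given in TPM, here reads of the miRNA per 1000000 reads of the library. The table listed 707 miRNAs, of which 570 were known and the rest predicted by the study. The 15 libraries held 10734898 to 13060558 reads, with 13008549, 13060558 and 10761310 in brain. A count of 3 reads, used here as the limit below which a level is not told from 0, corresponded to 0.231, 0.230 and 0.279 TPM in the brain samples. Kidney-1 stood apart, with 410664 TPM in the listed miRNAs in sum against 788209 and 847464 TPM in the other kidney samples. When it was left out, 201 miRNAs passed the main test, against 200 with it, and every call on a miRNA named below was kept.

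More miRNAs were seen in brain than in any other organ. The brain samples had 500, 475 and 444 miRNAs above 0 TPM, with a mean of 473 ± 28.1 (SD, n = 3), against 358 ± 24.3 (SD, n = 12) in the other organs. The 12 other samples ranged between 319 and 403, with means of 372 in liver, 380 in ovary and 353 in spleen. Kidney had the fewest, 325 ± 7.77 (SD, n = 3). The ranges did not overlap (exact two-sided permutation test, p = 0.0044, the smallest that 3 samples against 12 allow). The test took all samples as exchangeable, although samples of the same organ are not independent. Any organ with all 3 samples above the other 12 would reach this p. It therefore describes these samples and does not test brain against organs in general. At a level of at least 10 TPM the means were 205.3 in brain and 164.2 in the other organs, and after thinning to a common total of 10734898 reads they were 472 and 357, with the same p for both. The listed miRNAs also took a larger share of the brain libraries on average, 889123 ± 23836 TPM in sum against 760359 ± 118986 TPM in the other organs (SD, n = 3 and n = 12, exact two-sided permutation test, p = 0.0088). This p also took samples of the same organ as independent, and the ranges overlapped, with 871654 TPM in Brain-1 and 871976 TPM in Ovary-1.

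Of 668 miRNAs above 0 in at least 1 of the 15 samples, 200 differed between brain and the mean of the 4 other organs (29.9%). Of these, 58 were lower in brain (8.68% of those tested) and the rest were higher (21.3%). A miRNA was called where limma's Benjamini-Hochberg adjusted p was at most 0.05 and the difference in log2(TPM + 1) was at least 1, a scale that understates the change of low miRNAs. All 3 brain samples lay above all 12 others for 135 miRNAs (20.2%) and below them for 25 (3.74%), and 106 (15.9%) and 22 (3.29%) of these were also called. The 135 include 27 miRNAs with reads in all 3 brain samples and in no other, for which 1 read in each is enough. To lie below, a miRNA needed reads in all 12 others, so the counts of 135 and 25 are not alike. Of the miRNAs called higher, 100 were also called higher against each organ on its own (15.0% of those tested), whereas of the 58 only 14 were called lower against each organ (2.1%). With the 4 organs treated as a single group of 12 samples, 121 miRNAs were called higher and 21 lower, so the lower calls fell more. With a pseudocount of 0.1 TPM, 231 were called higher and 75 lower, so there the higher calls grew more. The median difference over all tested miRNAs was 0.15. Centring each sample on the median of 182 miRNAs above 1 TPM in all samples moved brain down by 0.36 on the log2 scale relative to the other organs. After centring, 116 miRNAs were called higher and 80 lower, which makes 59.2% of the calls higher against 71.0% before, and all 58 lower calls were kept.

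**Figure D1:**
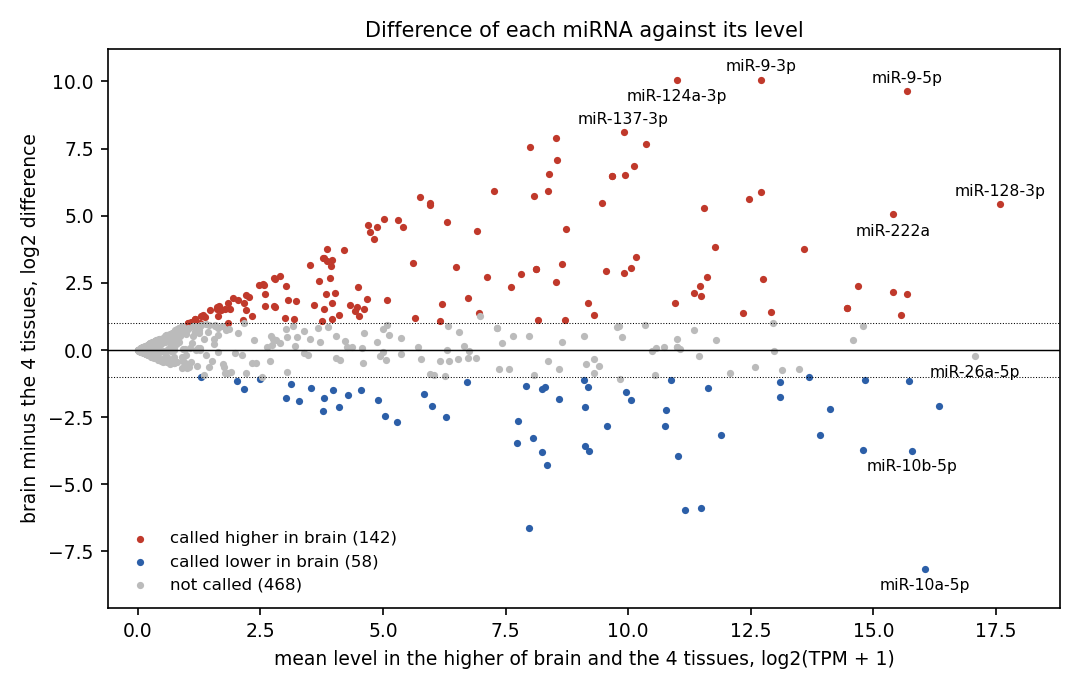
Each point is 1 of 668 miRNAs, with its mean level on the horizontal axis, as log2(TPM + 1) in whichever of brain and the 4 other organs was higher, and the brain minus the other organs difference in log2(TPM + 1) on the vertical axis. Those called higher reach 10.05 (gga-miR-9-3p) and the 58 called lower reach -8.14 (gga-miR-10a-5p), whereas gga-miR-26a-5p lies near 0 at a high level.

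The miRNAs known from neurons were the largest group of markers that were higher in brain. Of the 21 tested (both arms of miR-7, miR-9, miR-124, miR-128, miR-137, miR-138, miR-153 and miR-218, as far as each was listed), 18 were called higher and none lower, against 21.3% called higher among all miRNAs, and 17 of them were called against each of the 4 organs. The marker lists, here and below, were chosen with earlier results of these data known. They count arms and related forms of a miRNA as separate members, so these counts are a description. The median difference of the 21 was 3.46, against 0.15 over all miRNAs. In sum they made up 263332, 233140 and 306305 TPM in the brain samples, between 26.5% and 33.4% of all listed miRNA reads, against 2158 to 9457 TPM and 0.393% to 1.20% in the other organs. After centring, 16 of the 21 were called higher.

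Both arms of miR-9, which acts in neural progenitors and in the formation of neurons, were near the top of the order. gga-miR-9-3p had 7360, 7524 and 5117 TPM in brain, against 1.08 to 27.9 TPM (median 4.76) in the other organs, a difference of 10.05 ± 0.73 (SE) on the log2 scale with an adjusted p of 1.64e-07. gga-miR-9-5p was the more abundant arm, with 45103, 52098 and 61218 TPM in brain against 10.8 to 242 TPM (median 71.3) (difference 9.63 ± 0.46, adjusted p = 3.12e-09). For both arms the lowest brain sample was far above the highest of the 12 others. Among the other organs the spleen had the most gga-miR-9-5p, with 179, 207 and 242 TPM, yet its gga-miR-9-3p was only 1.29 to 5.98 TPM.

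miR-124, which represses non-neuronal transcripts in neurons, was nearly absent outside the brain. gga-miR-124a-3p had 2256, 1916 and 1972 TPM in brain, against 0 to 5.40 TPM (median 0.709) in the other organs, with 0 reads in Spleen-3 and Kidney-1 (difference 10.04 ± 0.37, adjusted p = 2.74e-10). Related forms were seen in brain and had 0 reads in every other sample: gga-miR-124b had 30.2, 25.3 and 19.0 TPM in brain and gga-miR-124c-3p had 6.23, 2.91 and 4.46 TPM. Set against the highest 3-read limit of any other library, these means were at least 88.9-fold and at least 16.2-fold higher. The other arm of the hairpin, gga-miR-124a-5p, had 0.384, 0.0766 and 0.372 TPM in brain and 0 elsewhere, which is too near the 3-read limit to be read as a difference. It did not pass the test (difference 0.34 ± 0.07, adjusted p = 0.000816).

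gga-miR-137-3p, a regulator of neuronal maturation in mammals, had 712, 1059 and 1104 TPM in brain, against 0 to 18.2 TPM (median 1.59) (difference 8.12 ± 0.29, adjusted p = 2.15e-10). The highest of the other organs was the ovary, with 18.2, 9.16 and 9.58 TPM, still far below brain. gga-miR-137-5p had 0.999, 1.84 and 0.929 TPM in brain and 0 in all 12 others, at least 4.49-fold higher against the same limit, and its call was lost without Brain-2 (difference 0.97). gga-miR-138-5p, known for its action at synapses in the rat, had 693, 739 and 695 TPM in brain against 2.53 to 58.3 TPM (median 14.3) (difference 5.46 ± 0.19, adjusted p = 1.89e-10), and both of its 3p forms were called higher as well, by 3.44 and 3.12.

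miR-153 and miR-7, which target transcripts of synaptic proteins including alpha-synuclein in mammals, were both higher. gga-miR-153-3p had 4706, 8370 and 6865 TPM in brain against 61.1 to 241 TPM (median 117) (difference 5.87 ± 0.19, adjusted p = 1.32e-10), and its 5p arm had 72.9, 111 and 52.0 TPM against 0.394 to 5.23 TPM (median 1.39). gga-miR-7 had 40.1, 56.3 and 48.2 TPM in brain against 0.904 to 10.5 TPM (median 4.81) (difference 3.23 ± 0.27, adjusted p = 5.31e-07), with no overlap. gga-miR-7b was called too, but overlapped the liver, with 11.8, 13.6 and 12.3 TPM in brain and 11.1, 14.3 and 10.5 TPM in liver, and its call was lost after centring (difference 0.73). gga-miR-218-5p, which marks motor neurons in the mouse, had 1522, 856 and 1032 TPM in brain against 29.1 to 614 TPM (median 97.5), with ovary the nearest at 614, 337 and 275 TPM (difference 3.46 ± 0.22, adjusted p = 5.49e-08). gga-miR-218-3p did not pass, with 1.92, 1.15 and 1.02 TPM in brain against 0 to 2.58 TPM (median 0.272) in the other organs.

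gga-miR-128-3p, which damps neuronal excitability in the mouse, was the most abundant miRNA of all 3 brain samples. It had 200664, 160257 and 228085 TPM there, 23.0, 18.2 and 24.9% of all listed miRNA reads, against 1903 to 9039 TPM (median 4781) in the other organs (difference 5.42 ± 0.23, adjusted p = 1e-09). The mean in brain was 40.3-fold that in the other organs, and unlike miR-124 it was plainly present in all 12 other samples. The 3p arm is the same from both miR-128 hairpins, whereas the 5p arms tell them apart. gga-miR-128-2-5p had 94.5, 52.3 and 36.6 TPM in brain against 0 to 1.12 TPM (median 0.137), a difference of 5.49 ± 0.20. gga-miR-128-1-5p had 26.1, 28.4 and 19.4 TPM against 2.18 to 9.95 TPM (median 6.38), a difference of 1.89 ± 0.17, with a mean 3.96-fold that of the other organs. No fold is given for the arm of miR-128-2, whose levels outside brain were mostly under the 3-read limit.

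Of the myelin-related miRNAs, gga-miR-219a and gga-miR-219b were tested and both were higher in brain. gga-miR-219a, which drives oligodendrocyte differentiation in mammals, had 498, 402 and 209 TPM in brain against 0 to 1.54 TPM (median 0.442) (difference 7.91 ± 0.26, adjusted p = 1.18e-10). Brain-3 had the lowest level of the brain samples and still lay above every other sample. gga-miR-219b was far less restricted, with 2645, 2928 and 2192 TPM in brain against 280 to 1152 TPM (median 681), a difference of 2.13 ± 0.19 (adjusted p = 7.73e-07).

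**Figure D2:**
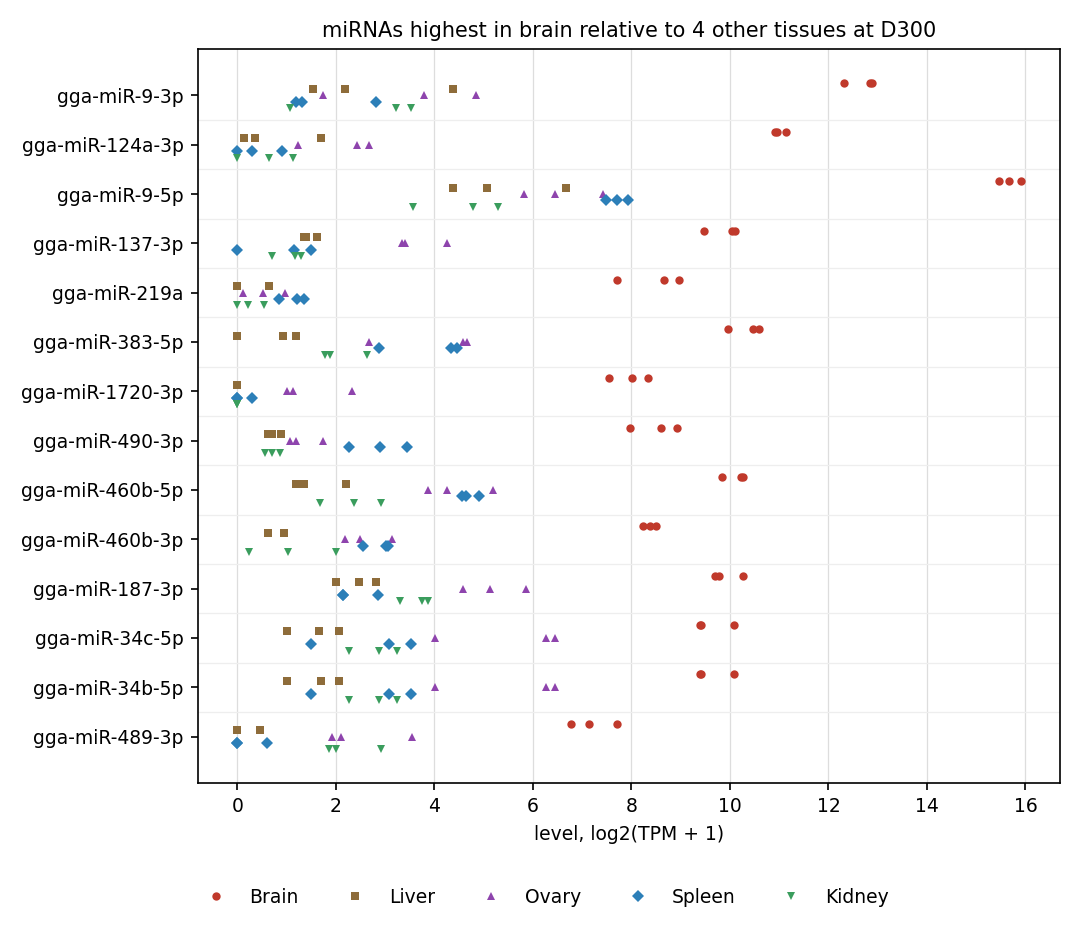
Level of 14 miRNAs in each of the 15 samples, as log2(TPM + 1) on the horizontal axis, with brain drawn above liver, ovary, spleen and kidney in each row and 1 point per sample. The 14 have the largest differences among miRNAs called higher, of at least 10 TPM in brain and with all brain samples above all others. All 3 brain points therefore lie to the right of all 12 others in every row by selection. For gga-miR-9-5p the brain samples reach 61218 TPM and the other organs at most 242 TPM.

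Beyond the neuronal and glial lists were 9 more of the 14 miRNAs with the largest differences, picked among those with all brain samples above all others. gga-miR-383-5p had 1417, 1543 and 994 TPM in brain against 0 to 24.2 TPM (median 5.26) (difference 7.68 ± 0.45, adjusted p = 1.99e-08). gga-miR-1720-3p had 185, 258 and 323 TPM in brain and 0 reads in every liver and kidney sample, and its highest value elsewhere was 4.04 TPM in Ovary-1 (difference 7.57 ± 0.23, adjusted p = 9.58e-11). In the GRCg7b annotation its hairpin lies within 10000 bp of a miR-7 hairpin. gga-miR-490-3p, whose hairpin sits in an intron of the muscarinic receptor gene CHRM2 in human, had 485, 388 and 250 TPM in brain against 0.473 to 9.87 TPM (median 0.965) (difference 7.09 ± 0.24, adjusted p = 1.4e-10).

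gga-miR-460b gave both arms, 5p with 910, 1199 and 1223 TPM in brain against 1.27 to 35.5 TPM (median 10.02) and 3p with 332, 299 and 362 TPM against 0.181 to 7.81 TPM (median 3.26). The differences were 6.85 ± 0.30 and 6.55 ± 0.29, with spleen and ovary above liver and kidney for both arms. gga-miR-187-3p had 1222, 872 and 830 TPM in brain against 2.99 to 56.8 TPM (median 7.55) (difference 6.50 ± 0.26, adjusted p = 6.03e-10), with the ovary next at 56.8, 22.9 and 33.8 TPM. gga-miR-489-3p, which holds muscle stem cells quiescent in the mouse, had 140, 207 and 108 TPM in brain against 0 to 10.7 TPM (median 1.57) (difference 5.92 ± 0.34, adjusted p = 1.58e-08).

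miR-34b and miR-34c, known from ciliated cells and from the p53 response in mammals, had nearly the same 5p values in every sample, so their reads may have been shared in the counting. gga-miR-34c-5p had 668, 1084 and 676 TPM in brain against 0.998 to 86.2 TPM (median 6.92) (difference 6.46 ± 0.52, adjusted p = 3.66e-07), and the ovary reached 86.2, 15.1 and 75.9 TPM. The 3p arms, which are told apart, gave 24.0, 49.1 and 50.6 TPM for gga-miR-34b-3p and 6.84, 15.5 and 18.3 TPM for gga-miR-34c-3p in brain, against at most 4.73 and 2.58 TPM elsewhere. Among 11 miRNAs known from choroid plexus or ciliated cells, 6 were called higher and 1 lower, against 21.3% and 8.68% of all miRNAs, and the 6 include near-identical pairs. gga-miR-204, a miRNA of choroid plexus and pigment epithelium, had 356, 310 and 166 TPM in brain, overlapping 202.8, 402 and 281 TPM in ovary, and was called higher against liver, spleen and kidney alone (difference 3.00 ± 0.28, adjusted p = 1.51e-06). gga-miR-211 had the same value as gga-miR-204 in all 15 samples and is not a separate measurement. The lower call was gga-miR-449b-5p of the ciliated-cell family, with 0, 0 and 0.279 TPM in brain and 16.3, 20.99 and 17.3 TPM in ovary, the only organ against which it was called. The other miR-449 forms were not called, and none had a positive difference. Their differences were -0.83 for gga-miR-449a, -0.04 for gga-miR-449b-3p, -0.61 for gga-miR-449c-3p and -0.48 for gga-miR-449c-5p.

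Most of the miRNA reads in brain came from few miRNAs: the 10 most abundant of each brain sample took 69.9% to 73.0% of the listed reads, against 65.9% to 85.9% in the other organs. By mean level in brain these were gga-miR-128-3p, gga-miR-26a-5p, gga-miR-9-5p, gga-miR-181a-5p, gga-let-7f-5p, gga-miR-222a, gga-miR-125b-5p, gga-miR-30d, gga-let-7k-5p and gga-miR-30e-5p. Abundance in brain and a difference from the other organs were not the same thing. gga-miR-26a-5p had 104827, 118713 and 118669 TPM in brain against 62829 to 201283 TPM (median 140155) (difference -0.22 ± 0.21, adjusted p = 0.412), and gga-miR-30e-5p had 22614, 29860 and 21274 TPM against 12961 to 23214 TPM (median 19127), neither of which was called. gga-miR-30d had 27800, 32165 and 24872 TPM in brain against 9346 to 31721 TPM (median 14110) and missed the fold threshold (difference 0.89 ± 0.12, adjusted p = 4.94e-05).

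gga-miR-222a, which lowers the cell cycle inhibitor p27 in mammals, was the abundant miRNA with the clearest difference after miR-9 and miR-128. It had 40663, 52432 and 37307 TPM in brain against 519 to 3816 TPM (median 1395) (difference 5.05 ± 0.42, adjusted p = 5.36e-07), 27.0-fold between the means. Its relative gga-miR-221-3p, looked up after the values were seen, had 9209, 15473 and 12032 TPM in brain against 408 to 1995 TPM (median 1175) (difference 3.76 ± 0.31, adjusted p = 4.06e-07). gga-miR-181a-5p, known from lymphocytes and brain, had 49172, 56687 and 52038 TPM in brain, while liver had 3222, 3239 and 5379 TPM and the other organs 13531 to 23984 TPM (difference 2.07 ± 0.17, adjusted p = 3.59e-07). gga-miR-125b-5p, a vertebrate relative of the worm timing miRNA lin-4, had 41782, 48144 and 40181 TPM in brain against 30832, 35930 and 26991 TPM in ovary and 3608 to 9103 TPM in liver, spleen and kidney. Brain lay above all 12 others (difference 2.16 ± 0.18, adjusted p = 5.48e-07), but against ovary alone it was not called.

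Of the let-7 miRNAs, which mark differentiated cells, gga-let-7f-5p and gga-let-7k-5p overlapped the liver. gga-let-7f-5p had 51467, 41374 and 52448 TPM in brain and 53456, 39598 and 43894 TPM in liver, and was called higher against ovary and kidney only (difference 1.32 ± 0.23, adjusted p = 0.000342). After centring its difference was 0.95 and it was no longer called. gga-let-7k-5p had 24672, 23347 and 31050 TPM in brain against 2386, 28850 and 20574 TPM in liver, where Liver-1 was far below the other liver samples. The difference of 2.37 ± 0.56 (adjusted p = 0.00353) became 2.09 without Liver-1 and remained called. gga-let-7c-5p, chosen after its values were seen, had 3251, 2357 and 2849 TPM in brain and overlapped 4576, 2984 and 3506 TPM in ovary, while liver, spleen and kidney had at most 803 TPM. gga-let-7a-5p and gga-let-7j-5p had identical values in all samples, 24818, 19362 and 23402 TPM in brain against 3414 to 17165 TPM (median 7877), and count as 1 measurement.

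Where both arms of a hairpin were called, they were called in the same direction. For 165 hairpins both arms were tested, and both were called higher for 27, both lower for 14 and in opposite directions for 0, while a single arm was called for 42 and neither for 82. Among all miRNAs, 21.3% were called higher and 8.68% lower. The pairs are not all separate measurements. The let-7a pair shares identical 5p values with let-7j and identical 3p values with let-7k, and the 5p arms of miR-34b and miR-34c were nearly the same. Across the 58 pairs in which both arms reached 10 TPM, the differences of the 5p and 3p arms had a Pearson correlation of 0.94, a description across miRNAs that share libraries, and 42 pairs lay within 1 of each other on the log2 scale. For 5 of the miRNAs named above, whose other arms were scarcer, the direction was shared. The differences were 4.41 for gga-miR-383-3p, 4.89 for gga-miR-1720-5p, 5.38 for gga-miR-490-5p, 4.85 for gga-miR-187-5p and 2.65 for gga-miR-489-5p. All were called higher with brain above all 12 others, and each difference was more than 1 below that of its partner. The means of these 5 arms over the other organs were only 0.111 to 0.361 TPM. At such levels log2(TPM + 1) understates the change, so it does not tell whether the 2 arms changed by different amounts. gga-miR-383-3p had 33.9, 22.1 and 21.2 TPM in brain against 0 to 0.772 TPM (median 0.124), and gga-miR-490-5p had 112, 35.5 and 35.8 TPM, of which Brain-1 was the highest.

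Hairpins that lie close together in the genome were compared as well. By the GRCg7b annotation, used only to tell which hairpins are neighbours within 10000 bp, 512 of 546 known miRNAs were matched, and 25 groups of neighbours held 2 or more miRNAs of at least 10 TPM, some of them in more than 1 group. No group held both a higher and a lower call: 14 had higher calls only, 4 lower calls only and 7 no call. Every such miRNA was called higher in 5 groups and lower in 3, so most groups with a call also held miRNAs that were not called. Among all single miRNAs, 21.3% were called higher and 8.68% lower. The 5 groups are not independent, as both groups of miR-181 hairpins hold the same mature miRNAs. A further group is that of miR-34b and miR-34c, with nearly the same 5p values. The pairs of miR-181a and miR-181b hairpins were among the higher groups, with 9446, 6788 and 4540 TPM of gga-miR-181b-5p in brain against 246 to 1959 TPM (median 1562) (difference 2.65 ± 0.20). gga-miR-181a-3p had 1102, 1009 and 771 TPM in brain against 50.8 to 279 TPM (median 112) (difference 2.88 ± 0.19). gga-miR-99a-3p, a neighbour of let-7c, resembled it in overlapping the ovary, with 489, 337.6 and 280 TPM in brain and 337.9, 378 and 331 TPM in ovary. The miR-181 and miR-99a forms other than gga-miR-181a-5p were picked once their levels were known.

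The miRNAs encoded in Hox clusters were the group with the largest deficit in brain. Of 7 tested, 6 were called lower and none higher, against 8.68% called lower among all miRNAs, with a median difference of -3.77. The 7 include several arms of the same hairpins, and the list was chosen with earlier results of these data known. In sum they gave 738, 598 and 141.8 TPM in the brain samples, against 9118 to 424827 TPM in the other organs. gga-miR-10a-5p was the most reduced miRNA of the table, with 246, 220 and 93.2 TPM in brain, against 8968, 10782 and 10665 TPM in liver and 47528 to 124055 TPM in ovary, spleen and kidney (difference -8.14 ± 0.34, adjusted p = 8.28e-10). Its mean over the other organs was 363-fold that in brain. gga-miR-10a-3p had 1.999, 0.766 and 0.558 TPM in brain against 52.6 to 527 TPM (median 254) (difference -6.62 ± 0.20, adjusted p = 9.58e-11), and both arms lay below all 12 others.

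The rest of the Hox group was lower in brain mainly through 2 organs. gga-miR-10b-5p had 485, 375 and 47.3 TPM in brain, against 92752, 272211 and 299477 TPM in kidney and 2837, 1897 and 4303 TPM in ovary, while liver and spleen had 94.9 to 690 TPM and overlapped brain. The difference of -3.77 ± 0.69 (adjusted p = 0.000541) was -1.73 without kidney and was then no longer called. gga-miR-196-5p had 3.997, 1.99 and 0.743 TPM in brain, against 1042, 962 and 909 TPM in kidney and 154.8, 190 and 327 TPM in ovary, and liver and spleen, with 1.77 to 3.90 TPM, overlapped brain (difference -3.80 ± 0.29, adjusted p = 2.02e-07).

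**Figure D3:**
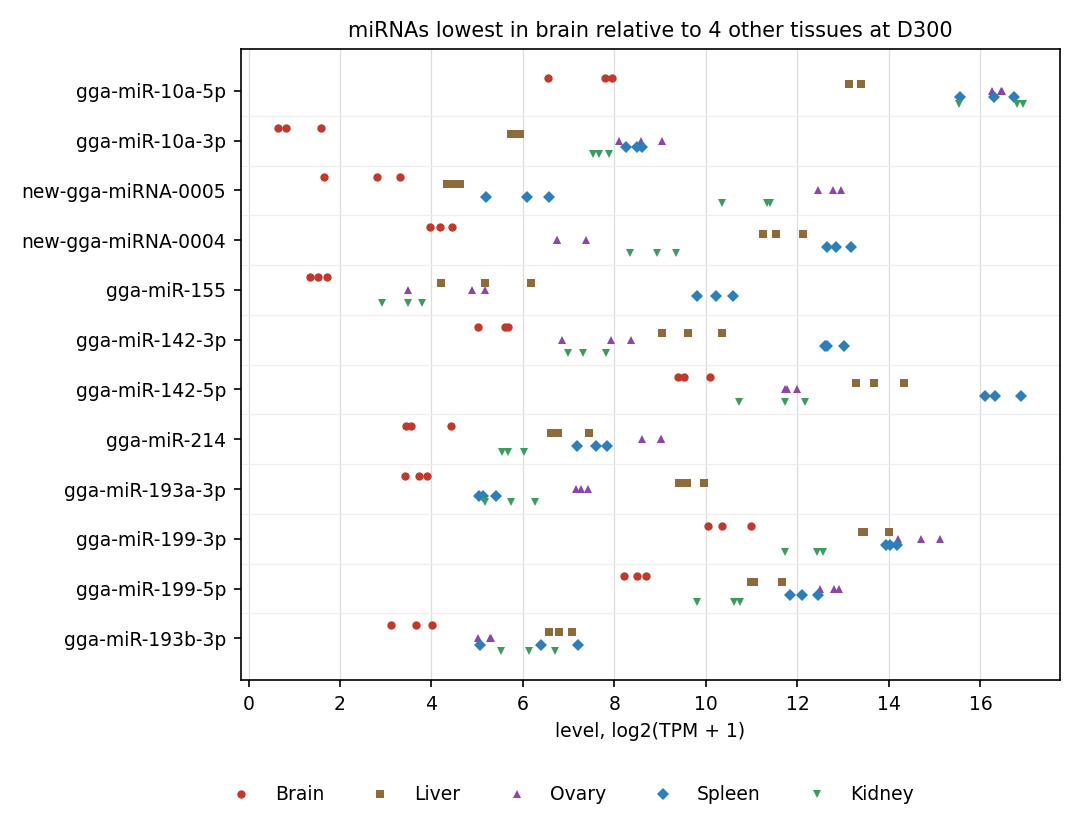
Level in each of the 15 samples of the 12 miRNAs most reduced in brain among those called lower with all brain samples below all others and averaging 10 TPM or more outside brain, as log2(TPM + 1) on the horizontal axis, with brain drawn above liver, ovary, spleen and kidney in each row and 1 point per sample. All 3 brain points lie to the left of all 12 others in every row, and gga-miR-10a-5p shows the widest gap, with at most 246 TPM in brain against at least 8968 TPM in the other organs.

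The mesenchymal miRNAs, cut in vertebrates from a transcript that runs antisense to a dynamin gene, were lower in brain throughout. gga-miR-199-3p, gga-miR-199-5p and gga-miR-214 were all called lower, lay below all 12 others and were called against each of the 4 organs, which held for 8.68%, 3.74% and 2.1% of all miRNAs. gga-miR-199-3p had 2040, 1053 and 1297 TPM in brain against 3368 to 35598 TPM (median 15986) (difference -3.18 ± 0.24, adjusted p = 2.16e-07). gga-miR-214 had 20.4, 10.7 and 9.85 TPM in brain against 45.9 to 521 TPM (median 158) (difference -3.48 ± 0.23, adjusted p = 6.54e-08). Kidney was nearest to brain for both, and ovary had the highest values. gga-miR-199-5p had 412, 361 and 295 TPM in brain against 899 to 7658 TPM (median 3443) (difference -3.16 ± 0.21).

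Of 11 miRNAs known from blood and immune cells, 7 were called lower in brain and none higher, against 8.68% called lower among all miRNAs, with a median difference of -1.37. Of the 11, 3 were below all 12 others, against 3.74% of all miRNAs. In sum the 11 gave 7168, 12012 and 7783 TPM in the brain samples, which overlapped the 4690 to 9818 TPM of kidney. The sums in brain lay below every sample of liver, ovary and spleen, with 101367 to 145557 TPM in spleen. gga-miR-146c-5p, with a mean of 7064 TPM in brain and 8070 TPM in the other organs, was not called (difference -0.03). gga-miR-155, induced in activated lymphocytes and macrophages, had 1.54, 2.30 and 1.86 TPM in brain, against 895, 1550 and 1188 TPM in spleen and 6.60 to 71.7 TPM in liver, ovary and kidney (difference -4.30 ± 0.40, adjusted p = 1.37e-06). gga-miR-142-5p, found across blood cell lineages, had 668, 736 and 1083 TPM in brain, against 70295, 121201 and 81972 TPM in spleen and 1686, 4590 and 3373 TPM in kidney, the nearest organ (difference -3.73 ± 0.29, adjusted p = 2.95e-07). gga-miR-142-3p showed the same order, with 31.2, 48.0 and 49.7 TPM in brain against 114 to 8338 TPM (median 426) (difference -3.95 ± 0.32).

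The other immune and blood miRNAs that were called lower did not lie below every organ. gga-miR-146b-5p, a target of NF-kB signalling in mammals, had 130, 205.6 and 158 TPM in brain, above 65.4, 99.4 and 102 TPM in kidney and below the 413 to 3319 TPM of the other organs (difference -1.88 ± 0.24, adjusted p = 3.23e-05). gga-miR-146a-5p had 509, 857 and 559 TPM in brain against 373 to 4347 TPM (median 1343), with kidney overlapping, and its call was lost without Brain-1 (difference -0.96). gga-miR-144-3p, an erythroid miRNA, had 151, 135 and 160 TPM in brain, against 1666, 716 and 1488 TPM in spleen and 116, 90.5 and 125.9 TPM in ovary (difference -1.37 ± 0.30, adjusted p = 0.00215). Without spleen the differences of gga-miR-144-3p and gga-miR-146a-5p were -0.82 and -0.60 and neither was called.

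The vascular miRNA gga-miR-126-3p, encoded in the endothelial gene EGFL7 in vertebrates, had 3538, 3672 and 3458 TPM in brain against 4414 to 15868 TPM (median 8505), below all 12 others (difference -1.20 ± 0.10, adjusted p = 4.39e-07). Its other arm gga-miR-126-5p, with 1968, 2162 and 2495 TPM in brain against 2003 to 7405 TPM (median 4312), missed the fold threshold (difference -0.87 ± 0.11) and passed it after centring (-1.23). The difference of gga-miR-126-3p was -0.99 without liver, just short of the threshold.

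gga-miR-193a-3p and gga-miR-193b-3p, whose hairpins are paired with miR-365 in vertebrates, completed the set of 12 together with 2 predicted miRNAs. gga-miR-193a-3p had 13.99, 9.72 and 12.2 TPM in brain, against 1000, 682 and 769 TPM in liver and 32.1 to 171 TPM in ovary, spleen and kidney (difference -3.28 ± 0.19, adjusted p = 2.16e-08). gga-miR-193b-3p had 7.61, 15.2 and 11.7 TPM in brain against 31.5 to 145.3 TPM (median 76.2) (difference -2.49 ± 0.37, adjusted p = 8.99e-05). Their 5p arms were scarce everywhere: gga-miR-193a-5p was called lower, with 0.231, 0.306 and 0.279 TPM in brain against 0.361 to 11.4 TPM (median 2.10), and gga-miR-193b-5p had 0 reads in brain and at most 0.652 TPM elsewhere, which was not called.

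Several miRNAs that are found in most tissues were also below all 12 others in brain, and they were singled out for those values. gga-miR-21-5p, raised in many growing and inflamed tissues, had 3574, 3571 and 2953 TPM in brain, against 6126, 4939 and 7574 TPM in kidney and 16379 to 28474 TPM in liver, ovary and spleen (difference -2.21 ± 0.16, adjusted p = 1.71e-07). gga-miR-16c-5p, of the miR-15 and miR-16 family that restrains the cell cycle, had 119, 95.8 and 81.5 TPM in brain against 200.5 to 727 TPM (median 318) (difference -1.83 ± 0.13). Its neighbour gga-miR-15c-5p had 328, 253 and 278 TPM in brain against 367 to 2298 TPM (median 702) (difference -1.56 ± 0.21), with spleen the highest for both. The family was not lower as a whole. Of its other miR-15 and miR-16 forms of at least 10 TPM, gga-miR-15b-5p (-1.39) and gga-miR-16-2-3p (-1.79) were called lower. gga-miR-16-5p (-0.24) and gga-miR-15a (-0.02) were not called.

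Some lower calls in brain came from the marker of a single other organ. gga-miR-122-5p, the main hepatocyte miRNA, had 18.5, 31.7 and 5.85 TPM in brain, against 6484, 6374 and 7494 TPM in liver and 3.95 to 99.9 TPM in the others, so that brain differed from liver only. The average difference of -2.84 ± 0.69 was -0.89 without liver. Both arms of the gonad miRNA miR-202 had 0 reads in every brain sample, while gga-miR-202-5p had 578, 835 and 1162 TPM and gga-miR-202-3p 65.0, 53.5 and 58.1 TPM in ovary and at most 0.944 TPM in liver, spleen and kidney. Of 3 miRNAs known from kidney epithelium, 0 were called by limma and 0 by edgeR, against 29.9% of all miRNAs called by limma. All 3 differences were under the threshold at 0.44 or less. The largest, gga-miR-215-5p, had 28.8, 29.6 and 61.9 TPM in brain against 7.77 to 68.5 TPM (median 27.9). In sum the 3 gave 9.85 to 35.1 TPM in kidney, 60.7 to 75.2 TPM in liver and 34.6 to 66.1 TPM in brain. They did not mark kidney in these samples.

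The 9 epithelial miRNAs were divided, with 6 lower and 3 higher in brain, against 8.68% lower and 21.3% higher among all miRNAs. The miR-200 and miR-429 members, which keep epithelial cells from a mesenchymal state, were the lower ones. gga-miR-200b-3p had 9.30, 5.74 and 17.6 TPM in brain, against 1626, 2495 and 1555 TPM in kidney and 111 to 202 TPM in liver and ovary, and overlapped spleen at 4.77, 2.11 and 16.8 TPM (difference -3.59 ± 0.41, adjusted p = 1.12e-05). gga-miR-200a-3p, with 22.5, 13.2 and 50.6 TPM in brain, was called lower against liver, ovary and kidney and higher against spleen, which had 4.16, 4.15 and 12.3 TPM. gga-miR-205b and gga-miR-205a, known from stratified epithelium, were called higher instead: gga-miR-205b had 9.69, 21.1 and 11.4 TPM in brain against 0 to 3.27 TPM (median 1.38) (difference 2.67 ± 0.39, adjusted p = 8.42e-05), and gga-miR-205a had 62.0, 73.4 and 82.4 TPM in brain and overlapped 294, 107 and 64.9 TPM in ovary. gga-miR-203a had 13.4, 22.1 and 29.6 TPM in brain against 1.41 to 51.2 TPM (median 8.14), highest in kidney, and its call was lost after centring (difference 0.91).

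Among 12 miRNAs of striated muscle 1 was called, against 29.9% of all miRNAs. gga-miR-133c-3p had 54.1, 48.9 and 39.5 TPM in brain, below 195, 184 and 114 TPM in ovary and above 4.16 to 18.2 TPM in the other organs (difference 1.19 ± 0.26, adjusted p = 0.00222), and it was not called after centring (0.83). gga-miR-133a-3p, the more abundant form, had 966, 985 and 682 TPM in brain, 2731, 3541 and 1830 TPM in ovary and 120 to 491 TPM in liver, spleen and kidney, and was not called (difference 0.90 ± 0.26).

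**Figure D4:**
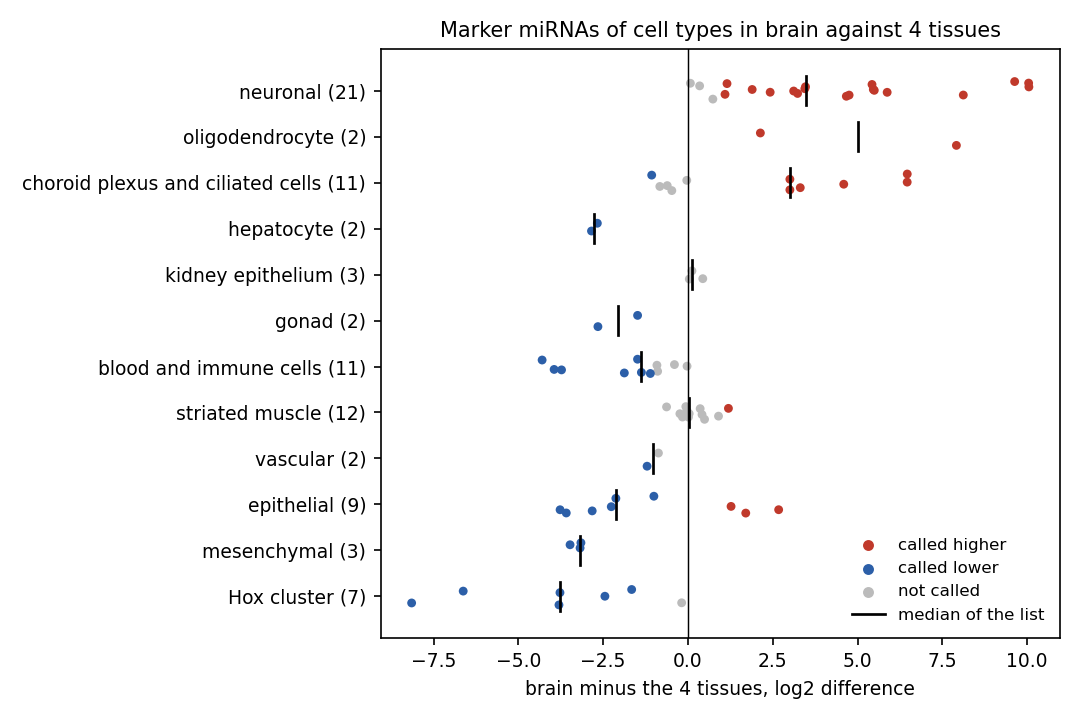
Each point is 1 miRNA of a marker list, placed by its brain minus the other organs difference in log2(TPM + 1) on the horizontal axis and coloured by its call, with a black line at the median of each list and the number tested in brackets. The neuronal list has its median at 3.46 with 18 of 21 called higher, and the Hox list has its median at -3.77 with 6 of 7 called lower. The lists were chosen with earlier results of these data known.

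Predicted miRNAs took part in both directions. Of 122 tested, 20 were called higher and 7 lower in brain, no larger a share than the 21.3% and 8.68% over all miRNAs, and 14 and 3 of these lay above or below all 12 others. Apart from new-gga-miRNA-0004 and new-gga-miRNA-0005, those described were picked once their levels were known. new-gga-miRNA-0007 had 3779, 6488 and 6659 TPM in brain against 22.7 to 310 TPM (median 132.4) (difference 5.63 ± 0.22, adjusted p = 5.64e-10), and new-gga-miRNA-0009 had 2697, 2898 and 3316 TPM against 22.0 to 201 TPM (median 68.6) (difference 5.29 ± 0.27). At these levels both were more abundant in brain than gga-miR-124a-3p. new-gga-miRNA-0021 had 36.6, 74.0 and 47.2 TPM in brain and 0 reads in all 12 others, at least 188-fold higher against the highest 3-read limit of those libraries. new-gga-miRNA-0013 had 286, 285 and 232 TPM in brain against 0.723 to 26.8 TPM (median 2.89) (difference 5.75 ± 0.39).

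In the other direction, new-gga-miRNA-0005 had 8.92, 5.97 and 2.14 TPM in brain, against 5565, 7928 and 6983 TPM in ovary and 1301, 2585 and 2717 TPM in kidney, with liver nearest at 23.5, 19.2 and 22.0 TPM (difference -5.96 ± 0.35, adjusted p = 1.99e-08). new-gga-miRNA-0004 had 14.7, 17.1 and 20.8 TPM in brain, against 9191, 7357 and 6370 TPM in spleen and 107, 105 and 166 TPM in ovary (difference -5.89 ± 0.23, adjusted p = 4.99e-10). Both fell below all 12 others, and they were high in different organs. new-gga-miRNA-0001, the most abundant predicted miRNA, had 17297, 11450 and 13474 TPM in brain and overlapped 15207, 26269 and 22857 TPM in kidney, while the ovary had 236333, 172034 and 148702 TPM (difference -2.09 ± 0.21).

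In all, 110 of the 668 miRNAs had reads in brain and in none of the 12 other samples, gga-miR-124b and new-gga-miRNA-0021 among them. Of the 110, 86 were known. Matching counts for the other organs are not given here. Of the 110, 27 were above 0 in all 3 brain samples and 19 passed the 3-read limit in all 3, so most of the set rested on 1 or a few reads. Separately, 96 of the 668 miRNAs had 0 reads in all 3 brain samples. This asks for 0 reads in 3 samples rather than in 12, so it is not the mirror of the 110.

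The brain was the organ whose miRNAs least resembled the others. Across the 668 miRNAs, which are not independent replicates, the log2 levels of a brain sample and of another organ had Pearson correlations of 0.83 to 0.89, whereas those of 2 of the other organs ranged between 0.91 and 0.95 and those within brain between 0.988 and 0.992. Ovary was nearest to brain (median 0.88), then spleen (0.87), and liver and kidney were both at 0.84. Against liver 76 miRNAs were lower in brain, 11.4% of those tested, and 20.7% were higher. Against ovary 64 were lower (9.58%) and 139 higher (20.8%), and against spleen 66 were lower (9.88%) and 151 higher (22.6%). Against kidney 230 were called, with 36 lower in brain (5.39%) and the rest higher (29.0%). These 4 comparisons share the brain samples. The number of calls against kidney depended on the processing. The 182 miRNAs used for centring had medians of 6.17 to 6.55 on the log2 scale in kidney, against 7.10 to 7.54 in brain. In liver, ovary and spleen these medians were 7.03 to 7.38. Calls against kidney numbered 283 after centring and 191 with edgeR and DESeq2 size factors, which changed the test as well as the scaling. How these calls split into higher and lower is not given here. What set the lower kidney medians was not tested.

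The 3 brain samples were close for most miRNAs, but Brain-3 departed from the others for some. gga-miR-10b-5p was at 47.3 TPM in Brain-3 against 485 and 375 TPM in the other brain samples, and gga-miR-10a-5p, gga-miR-219a and gga-miR-204 were also lowest there. In the opposite sense, gga-miR-429-3p had 6.46, 5.74 and 39.9 TPM and gga-miR-183 had 3.92, 5.97 and 25.3 TPM, both highest in Brain-3. gga-miR-183, a miRNA of sensory cells that was chosen after its values were seen, was not called (difference 0.82 ± 0.40, adjusted p = 0.108). Without Brain-3 the calls were 159 higher and 54 lower. Which part of the brain each sample held was not tested.

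Pectoral muscle at D300 and whole embryos at day 5 (E5) and day 7 (E7) were given in another table, scaled apart from this one, so their levels are set beside those of brain with no test; the labels named the embryo samples as pectoral muscle, whereas the study's methods described whole embryos. The 92 known miRNAs called higher in brain and above all 12 other samples were all listed there; as they were chosen for high values in brain, their counts are a description. For 85 of them all 3 brain samples also lay above all 3 muscle samples, and for 1, gga-miR-6553-3p, they lay below, against 189 above (36.1%) and 77 below (14.7%) of the 524 known miRNAs listed in both tables. Relative to the embryos the number was smaller, 61 at E5 and 57 at E7 with all brain samples above, and 12 and 16 with all brain samples below, against 30.5% and 26.5% above and 35.1% and 38.5% below among the 524. Of the 19 known miRNAs called lower and below all 12 others, 15 were below all 3 muscle samples too, against the 14.7% given above. These were chosen for low values in the same brain samples, so this count is a description as well.

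The neuronal miRNAs differed in how far the embryos approached brain. gga-miR-124a-3p had 2256, 1916 and 1972 TPM in brain, 39.2, 58.5 and 47.2 TPM at E5, 60.7, 64.9 and 50.7 TPM at E7 and 11.6, 1.21 and 0.476 TPM in muscle. gga-miR-9-3p in embryos lay within or above the range of brain, with 6438, 6459 and 6447 TPM at E5 and 10281, 7900 and 8738 TPM at E7, but gga-miR-9-5p did not, with 5335, 7167 and 6827 TPM and 8969, 6062 and 5918 TPM. gga-miR-137-3p was listed at 0 in all E5 samples and at 13.3 to 22.2 TPM at E7. gga-miR-128-3p had 14563, 13866 and 13318 TPM at E5, 19783, 21274 and 16488 TPM at E7 and 5676, 8488 and 6040 TPM in muscle, in each case far below brain.

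Among the less specific miRNAs, gga-miR-222a had 9132, 9224 and 7129 TPM at E5, 10832, 8442 and 11800 TPM at E7 and 829, 691 and 798 TPM in muscle. gga-miR-125b-5p at E7 exceeded brain, with 77720, 77984 and 82034 TPM. gga-miR-489-3p was not as low in muscle as in the other organs, with 27.5, 60.5 and 44.4 TPM. On the low side, gga-miR-10a-5p had 15056, 10638 and 14493 TPM in muscle and 23464 to 25893 TPM at E5, all above brain, whereas gga-miR-142-5p, with 93.4 to 109 TPM at E5 and 128.02 to 168 TPM at E7, was lower in the embryos than in brain.

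**Figure D5:**
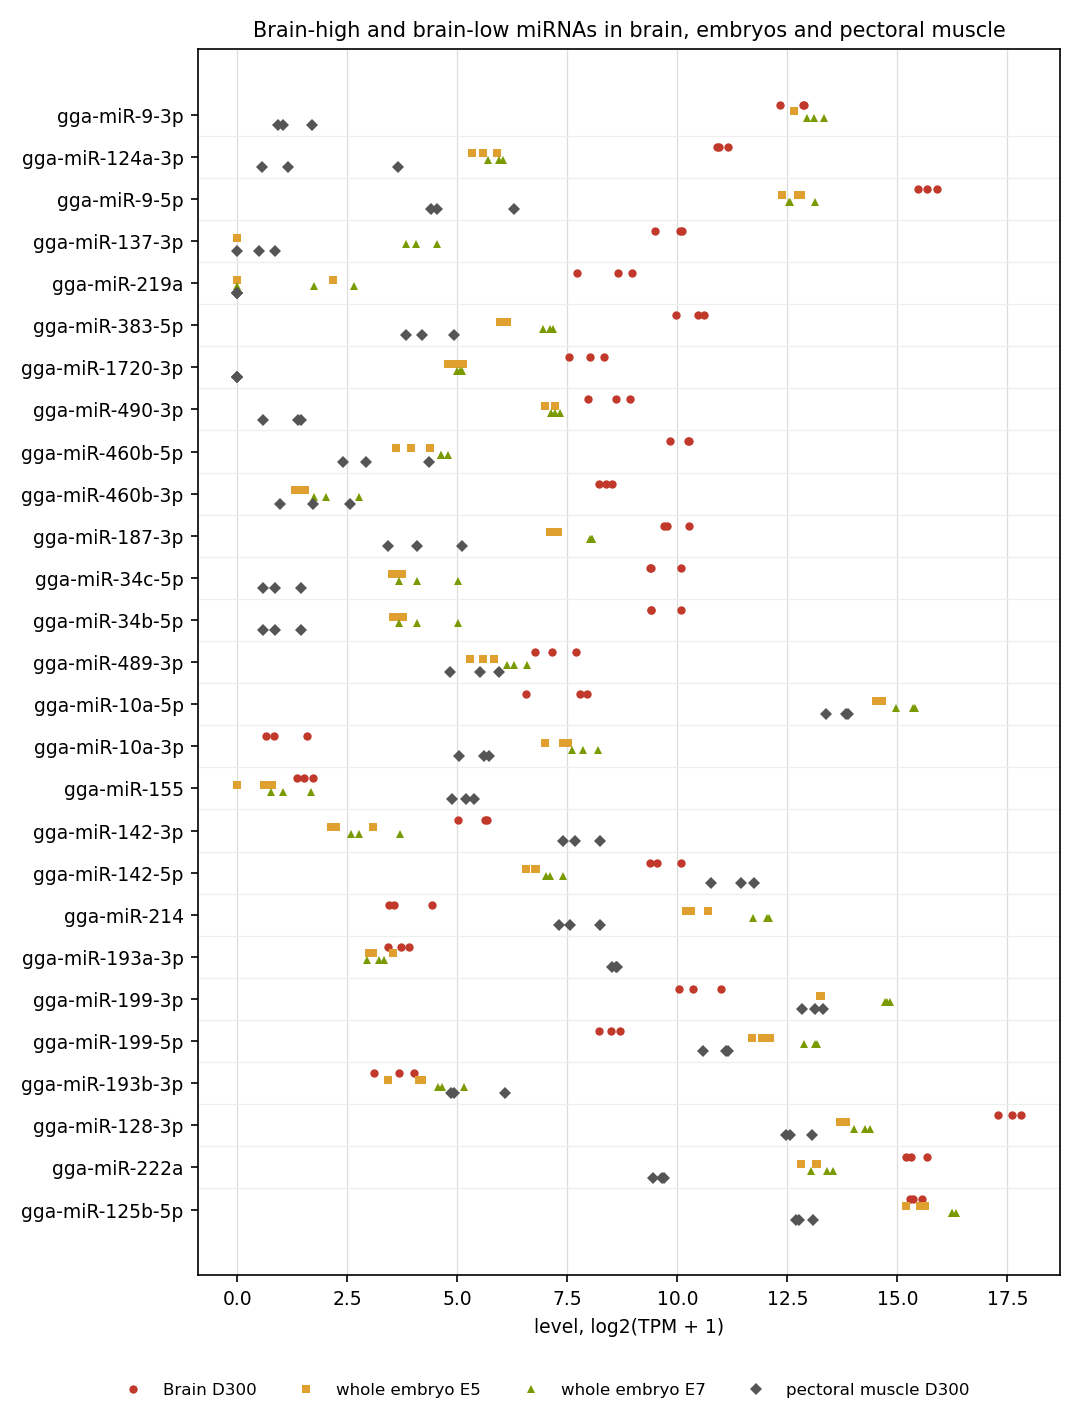
Level of 27 miRNAs named above, as log2(TPM + 1) on the horizontal axis, in brain at D300, whole embryos at E5 and E7 and pectoral muscle at D300, with 1 point per sample; brain comes from a separately scaled table. gga-miR-9-3p in brain (5117 to 7524 TPM) is not above the embryos (6438 to 10281 TPM), whereas gga-miR-9-5p in brain (45103 to 61218 TPM) lies above all embryo samples (5335 to 8969 TPM).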

How the data were processed

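Small RNA libraries of 15 samples (brain, liver, ovary, spleen and kidney at D300, 3 each) were used, with pectoral muscle at D300 and embryos at E5 and E7 for side by side values. The authors trimmed adapters with cutadapt, kept short reads, removed other RNA classes with bowtie2, mapped to the chicken genome and miRBase, and predicted further miRNAs; the genome build is not given in the sources used here. The deposited values were TPM by the study's name and are RPM in unit, reads per 1000000 reads of the library. All values of the 15 samples were whole multiples of 1 read (100%, tolerance 0.01 read), which gave the library totals and counts. A column without a sample name (1 column) was not used. Limits of 3 reads cover counting error only.

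Values were taken as log2(TPM + 1), 39 miRNAs at 0 throughout were dropped, and limma 3.58.1 (R 4.3.3) was fitted to the 5 tissues with the contrast of brain minus the mean of the 4 other tissues, p-values adjusted by Benjamini-Hochberg over all 668 miRNAs. Tested on simulated data for this comparison with 655 miRNAs, the fit called 61 of 61 miRNAs of at least 10 TPM changed by 4-fold and 0 of 457 unchanged. The simulation gave all organs the same levels apart from the changes set in brain, and all miRNAs the same dispersion. It held no differences among the other organs, no outlying sample and no smaller changes, so it does not give the error rate in the real data. Alternatives used edgeR 4.0.16 (quasi-likelihood test on the recovered reads, TMM or DESeq2 1.42.0 size factors), other pseudocounts, filters and scalings, and samples or tissues left out. Single values were tested by exact permutation of samples (SciPy 1.17.1), which took no account of their grouping by organ.

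Named miRNAs were the 14 called with the largest differences (mean of at least 10 TPM, all brain samples above all others), the 12 most negative by the mirrored rule, the 10 most abundant in brain, their other arms and members of marker lists. Members and lists were chosen with earlier results of these data known. Of the markers, miR-129, miR-132, miR-212, miR-338, miR-150, miR-223, miR-451, miR-192, miR-141, miR-143 and miR-145 were not analysed here. No label names shared birds. Of 30 correlations of same-numbered samples 12 were over 0.1, and all 3 were for 2 of the 10 pairs of tissues, brain with ovary and liver with kidney, so numbers may pair those tissues. For the other pairs of tissues, weak correlations do not tell whether same-numbered samples came from the same bird.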

Additional observations from a re-analysis of the deposited data

How the results depend on the processing

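With a pseudocount of 0.1 TPM the calls numbered 306, of which 231 were higher, and edgeR with TMM called 224 higher. Fitting 2 groups only gave 21 lower calls. Leaving out each sample in turn gave 136 to 159 higher and 54 to 59 lower calls, with the fewest and the most higher calls without Brain-2 and without Brain-3, and moved the total by at most 6.5% and the counts against each organ by at most 5.99%. The excess of detected miRNAs in brain ranged between 102 and 130, and that of the summed level between 96974 and 138911 TPM, the lowest without Kidney-1, with permutation p at most 0.044 for both. These p-values likewise took samples of the same organ as independent. Same-numbered samples did not correlate across all 5 tissues, which does not tell whether birds were shared. The fit with the replicate block gave 201 calls, 59 of them lower. Against ovary, whose numbers may pair with those of brain, the block changed no call, and a fit of brain and ovary alone, added after seeing the data, gained 5 calls and lost 0 with the replicate block. Rescaling to the listed miRNAs, added after seeing the data, gave 201 calls, 68 of them lower and 66.2% higher. Leaving out kidney gave 131 higher and 71 lower calls, and leaving out liver 210 calls, 55 of them lower. With 2 groups only, 22 of the miRNAs named lost their call, gga-miR-155, gga-miR-122-5p, gga-miR-10b-5p, gga-miR-196-5p and gga-miR-200b-3p among them. Of the uncalled miRNAs, 2 changed sign: gga-miR-30e-5p was at -0.11 with edgeR and DESeq2 size factors, and gga-miR-124a-5p at -0.019 after centring. Sums over seed families were not run. Levels under 3 reads are not told from 0.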

Other observations

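The balance of the 2 arms of miR-9 in whole embryos differed from that in brain and in the other adult tissues, a ratio taken within each sample and so not affected by the separate scaling of the tables. The reads of gga-miR-9-5p were 6.13, 6.92 and 11.96 times those of gga-miR-9-3p in the brain samples, against 0.829, 1.11 and 1.06 times at E5 and 0.872, 0.767 and 0.677 times at E7. The values did not overlap, and the difference was seen after the data were examined and was not tested. In the other adult tissues, where gga-miR-9-3p had few reads, the ratio was 5.13 to 17.1 in liver, 6.12 to 23.7 in ovary, 29.8 to 188 in spleen, 3.19 to 10 in kidney and 9.93 to 86.3 in muscle, so it was not particular to brain.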
